A study of Mus musculus with 26 samples.

Results

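The genes described here are 9 iron-handling genes: Fth1, Ftl1, Tfrc, Trf, Ireb2, Aco1, Iscu, Nfs1 and Fech. They were selected on measured values, since Fth1 was known to be low in every immunoprecipitate of the brown fat libraries and the others were taken to set beside it. Of the 9378 genes named in the brown fat count tables, 8 are members; Ireb2 is listed in neither table. All 8 are listed in the table that holds the IgG control, and 4 (Fth1, Ftl1, Iscu and Fech) are also among the 1189 genes of the table that holds the knockout.

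Ferritin is the shell in which cells store iron. Its heavy chain (Fth1) oxidises iron for storage and its light chain (Ftl1) helps the mineral core to form. Cells take up iron as transferrin (Trf) through the transferrin receptor (Tfrc). The iron regulatory proteins Aco1 and Ireb2 bind hairpins called iron-responsive elements, which block translation of the ferritin mRNAs when iron is scarce and stabilise the Tfrc mRNA. In mitochondria, which are abundant in brown adipocytes, iron enters iron-sulphur clusters, built on the scaffold Iscu with sulphur released by Nfs1, and haem, completed by ferrochelatase (Fech).

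The 12 brown fat libraries came from male mice aged 10 weeks on a C57Bl/6J background, fed normal chow and kept overnight at 4 °C before collection. IMP2 is the mRNA-binding protein encoded by Igf2bp2; wild-type mice were compared with Imp2-/- littermates, the offspring of heterozygous parents. RNA was sequenced either as total RNA or after immunoprecipitation (IP), in which an antibody pulls down a protein with the RNA bound to it. The knockout table holds 2 wild-type total RNA libraries (16 and 17), 2 knockout total RNA libraries (18 and 19), 2 wild-type IMP2 immunoprecipitates (21 and 22) and 2 knockout immunoprecipitates with the same IMP2 antibody (23 and 24), which have no IMP2 to recover. The IgG table holds wild-type libraries alone: 2 of total RNA (15 and 20), 1 IMP2 immunoprecipitate (25) and 1 immunoprecipitate with nonspecific IgG (26). The labels do not say whether tissue of several mice was pooled, and Imp2 is missing from the whole animal.

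Counts on named genes ran from 780333 to 4916159 per library, and levels are given as counts per 1000000 counts (CPM), with totals scaled by trimmed means. The deleted gene Igf2bp2 is not listed in the knockout table, so its loss could not be checked there; in the wild-type IgG table it had 8 to 20 counts. The thermogenic uncoupler Ucp1, which defines brown adipocytes, lay between 5194 and 10860 CPM in the 8 libraries of the knockout table, and the 8 of 13 brown adipocyte markers listed there summed to between 38787 and 49673 CPM. Of 17 skeletal muscle markers, the 8 listed in the knockout table summed to between 363 and 10515 CPM. Of 20 macrophage markers, 0 are listed in the knockout table and 8 in the IgG table, where they summed to 91.5 to 196 CPM. A gene missing from the knockout table has no value there. Every transcript it lists has at least 101 counts in each wild-type library and 34 in each knockout library, so a missing gene may have been low in these libraries; the rule of listing is not given in the labels.

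Fth1 lies on chromosome 19, from 9980600 to 9985111, and Ftl1 on chromosome 7, from 45457944 to 45459886, in the RefSeq annotation of GRCm38, the assembly also called mm10. Fth1 stood at 8455 CPM in wild-type total RNA library 16 and at 4153 CPM in library 17. In knockout total RNA it stood at 7446 CPM in library 18 and at 11205 CPM in library 19. Both wild-type immunoprecipitates were lower, at 2081 CPM in library 21 and 1531 CPM in library 22. The knockout immunoprecipitates, which contain no IMP2, were low as well, at 2493 CPM in library 23 and 2981 CPM in library 24. The highest of these 4 immunoprecipitates was below the lowest of the 4 total RNA libraries. In the IgG table Fth1 stood at 2914 CPM and 6377 CPM in the total RNA libraries 15 and 20. The IMP2 immunoprecipitate 25 had 952 CPM of Fth1 and the IgG immunoprecipitate 26 had 806 CPM. Fth1 was thus low with the IMP2 antibody in mice with and without IMP2, and low with nonspecific IgG.

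Relative to total RNA, Fth1 in the IMP2 immunoprecipitate was at 0.287 of its level in wild type, a log2 ratio of -1.80 ± 0.34 (SE of the edgeR fit, n = 2 libraries per group). In knockout the log2 ratio was -1.77 ± 0.34, a fraction of 0.293. In each genotype Fth1 ranked 6 from the lowest of 1189 genes. These ratios chose the gene and are given without a test. Without total RNA library 16, the wild-type ratio of Fth1 was -1.20, and over all left-out libraries it ran from -2.23 to -1.20. In the IgG table the log2 ratio of Fth1 to the mean of both total RNA libraries was -2.29 with the IMP2 antibody and -2.53 with IgG, rank 90 and rank 16 from the lowest of the 8179 genes with a mean of at least 5 CPM. Without total RNA library 20 they were -1.61 and -1.85.

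Ftl1, the partner chain, was low in the same libraries, though by less. Its total RNA levels were 934 CPM and 604 CPM in wild type (libraries 16 and 17) and 892 CPM and 1030 CPM in knockout (libraries 18 and 19). Its immunoprecipitate levels were 413 CPM and 343 CPM in wild type (libraries 21 and 22), and 419 CPM and 420 CPM in knockout (libraries 23 and 24). As for Fth1, no immunoprecipitate of the knockout table reached the lowest total RNA library. In the IgG table Ftl1 had 278 CPM and 394 CPM in total RNA, 200 CPM with the IMP2 antibody and 184 CPM with IgG, so the order was the same. The log2 ratio of Ftl1 was -1.02 ± 0.21 in wild type and -1.20 ± 0.20 in knockout (n = 2 libraries per group), rank 37 and rank 36 of 1189. With libraries left out the wild-type ratio of Ftl1 ran from -1.30 to -0.67, the latter without library 16. With a single library per immunoprecipitate in the IgG table, the ratios were -0.75 for IMP2 and -0.87 for IgG, or -0.47 and -0.60 without total RNA library 20. There Ftl1 was not near the low end, at rank 1289 (IMP2) and rank 1044 (IgG) from the lowest of 8179 genes.

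**Figure D1:**
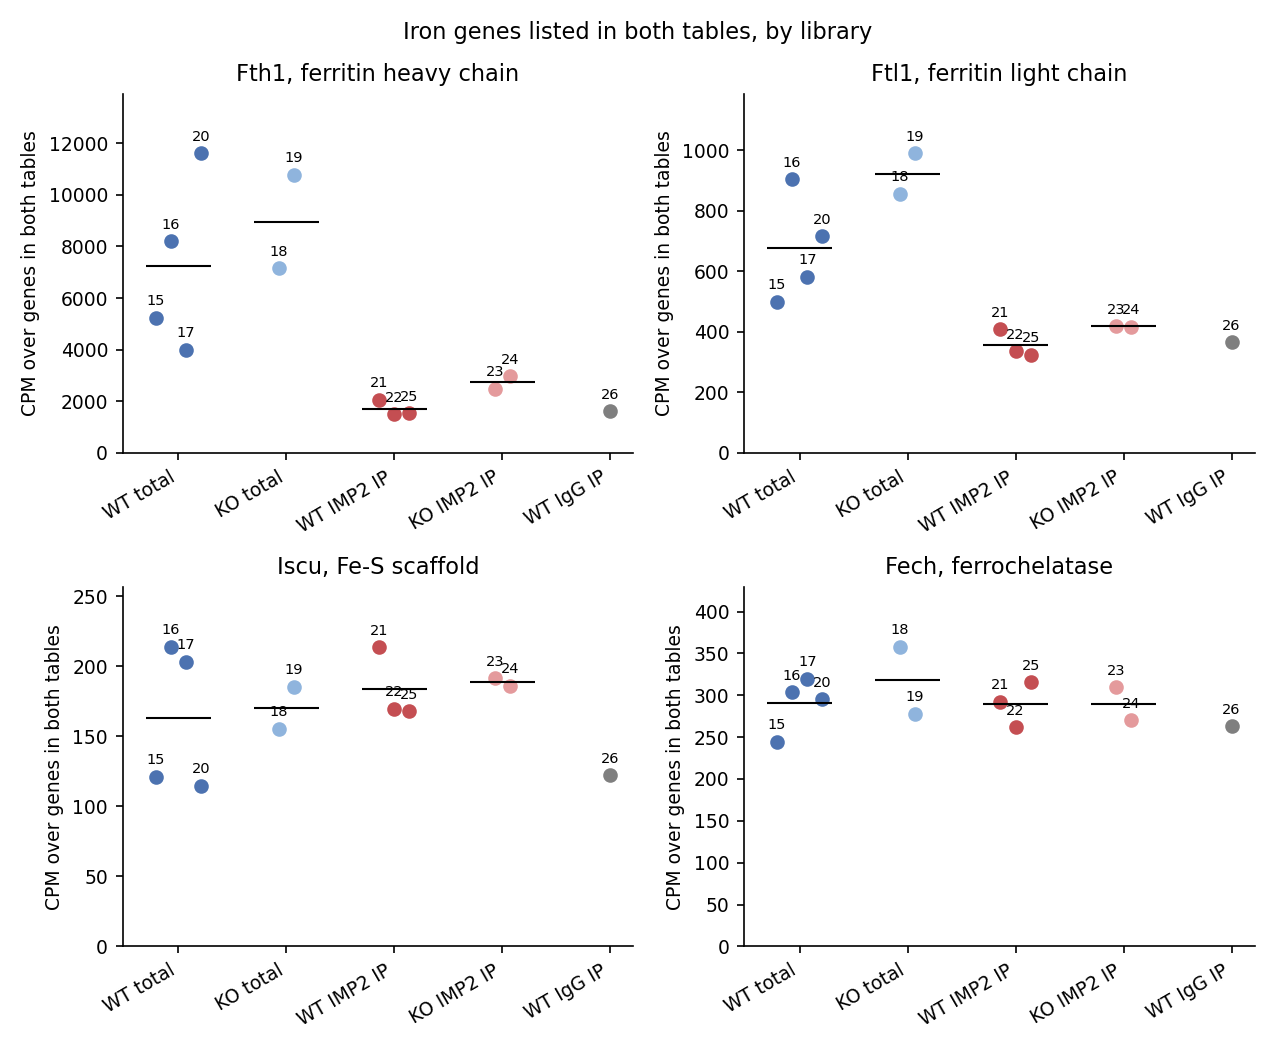
Level of Fth1, Ftl1, Iscu and Fech in each of the 12 brown fat libraries (points, numbered as in the labels), in CPM over the 1189 genes that both tables list; black lines are group means and the groups are WT or KO, total RNA or immunoprecipitate (IP). On this shared scale Fth1 runs from 4005 to 11604 CPM in the 6 total RNA libraries and from 1498 to 2966 CPM in the 6 immunoprecipitates, while Iscu and Fech overlap between the 2 kinds of library.

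On a scale shared by all 12 libraries, CPM over the 1189 genes listed in both tables, Fth1 averaged 7261 ± 3389 (SD, n = 4) in wild-type total RNA and 1700 ± 313 (SD, n = 3) in wild-type IMP2 immunoprecipitates. Ftl1 averaged 676 ± 177 (SD, n = 4) and 356 ± 45.8 (SD, n = 3) in the same groups. The tables hold different libraries, so levels set side by side across them may also carry a difference between tables. For Iscu in wild-type total RNA, libraries of the IgG table reached at most 121 CPM on the shared scale and those of the knockout table at least 203 CPM. A difference between tables and one between the samples they hold cannot be told apart here.

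The balance of the ferritin chains also differed between the kinds of library. Within a library, the number of Fth1 reads per Ftl1 read does not depend on scaling, and gene length cancels when libraries are compared. It was 9.06 and 6.88 in wild-type total RNA of the knockout table (libraries 16 and 17), 8.34 and 10.9 in knockout total RNA (18 and 19), and 10.5 and 16.2 in total RNA of the IgG table (15 and 20). In the immunoprecipitates it was 5.04 and 4.46 in wild type (21 and 22), 5.95 and 7.10 in knockout (23 and 24), 4.75 with the IMP2 antibody (25) and 4.39 with IgG (26). The median was 9.76 over the 6 total RNA libraries and 4.89 over the 6 immunoprecipitates. The kinds overlapped in 1 pair, knockout immunoprecipitate 24 lying above wild-type total RNA library 17. Since low Fth1 chose the set, this is a description and was not tested. Both chains have processed copies elsewhere in the mouse genome, and how the authors treated reads matching several places is not given in the sources used here.

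**Figure D2:**
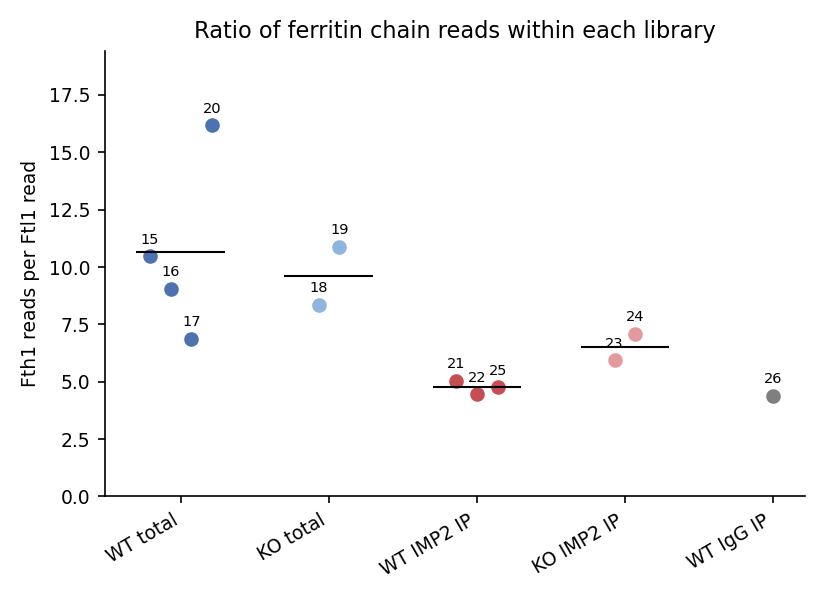
Fth1 reads per Ftl1 read in each library (points, numbered as in the labels; lines are group means; vertical axis from 0, no unit). Total RNA libraries run from 6.88 to 16.2 and immunoprecipitates from 4.39 to 7.10, whichever antibody or genotype was used.

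Fth1 was also among the genes that differed most between total RNA libraries of one group. It differed 2.04-fold between wild-type libraries 16 and 17, more than all but 0.841% of the 1189 genes. It differed 1.5-fold between knockout libraries 18 and 19, where 4.54% of genes differed more. Between libraries 15 and 20 of the IgG table Fth1 differed 2.19-fold, where 8.80% of 8179 genes differed more. Ftl1 differed 1.55-fold between libraries 16 and 17, where 2.44% of genes differed more, and Iscu and Fech 1.05-fold and 1.06-fold. In the other pairs Ftl1 was not among the most variable genes, at 1.15-fold between libraries 18 and 19 (44.8% differed more) and 1.42-fold between 15 and 20 (40.3%). Other features of the total RNA libraries moved with this spread. In order of rising Fth1 on the shared scale these were libraries 17, 15, 18, 16, 19 and 20. Along it the share of counts on transcripts that could not be named fell from 29.2% through 15.8%, 12.7%, 12.4% and 11.6% to 10.8%. Such transcripts number 3 in the knockout table and 22 in the IgG table. The immunoprecipitates, in rising order of Fth1 (22, 25, 26, 21, 23 and 24), showed no such fall, with 17.6%, 7.39%, 9.99%, 13.7%, 9.26% and 8.65%. Among total RNA libraries, depth was lowest in the pair with least Fth1, at 1424022 counts in library 17 and 1466519 in library 15. Summed skeletal muscle markers did not follow that order, with 10141 CPM in library 17, 26739 in library 15 and 15094 in library 20 on the shared scale. The part of these features in the spread of Fth1 was not tested.

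Markers of red cells were lower in the immunoprecipitates too. The 3 of 12 erythroid markers listed in the knockout table summed to 3625 to 5038 CPM in total RNA and to 1618 to 2734 CPM in immunoprecipitates. The IgG table lists 6 of 12, and they summed to 4673 and 3295 CPM in total RNA, 2336 CPM with the IMP2 antibody and 1306 CPM with IgG. Both immunoprecipitates lay below both total RNA libraries for 33.8% of the 1189 genes in wild type and 33.9% in knockout. Of 10 endothelial markers, the 1 listed with the knockout did so in both genotypes. In wild type it had 332 and 406 CPM in total RNA and 183 and 266 CPM in immunoprecipitates. With the IgG control 9 are listed, summing to 707 and 744 CPM in total RNA, 733 with IMP2 and 753 with IgG. The part of red cells in the low Fth1 and Ftl1 was not tested. Where total RNA libraries of bulk tissue differ from each other, fewer cells of a type and less RNA per cell cannot be told apart.

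Iscu and Fech, which use iron rather than store it, stayed near their total RNA level. Iscu had 221 CPM and 211 CPM in wild-type total RNA, 216 CPM and 174 CPM in the wild-type immunoprecipitates, 162 CPM and 193 CPM in knockout total RNA, and 192 CPM and 187 CPM in the knockout immunoprecipitates. Its log2 ratio of immunoprecipitate to total RNA was -0.14 ± 0.15 in wild type and 0.09 ± 0.14 in knockout, and the groups overlapped in both. Fech had 313 CPM and 332 CPM in wild-type total RNA, 295 CPM and 267 CPM in the wild-type immunoprecipitates, 373 CPM and 289 CPM in knockout total RNA, and 310 CPM and 272 CPM in the knockout immunoprecipitates. Its ratio was -0.19 ± 0.16 in wild type and -0.18 ± 0.16 in knockout. In wild type, 3 of the 4 listed members (Fth1, Ftl1 and Fech) had both immunoprecipitates below both total RNA libraries, as had 33.8% of all genes. In knockout 2 of 4 (Fth1 and Ftl1) did, as had 33.9% of all genes.

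**Figure D3:**
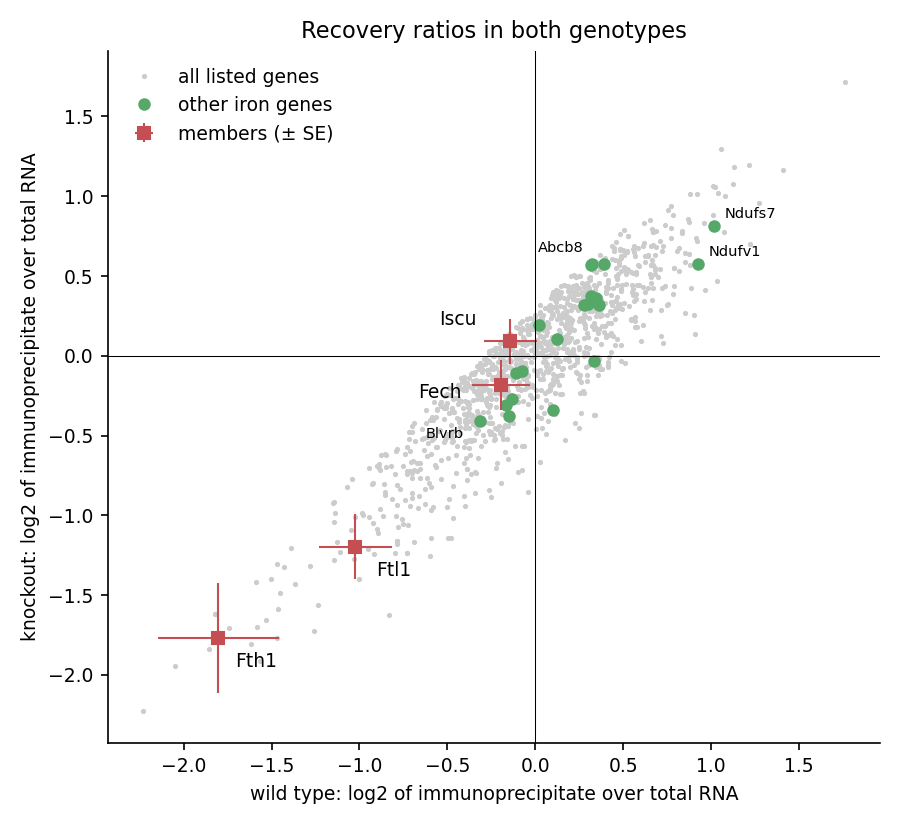
Log2 ratio of IMP2 immunoprecipitate to total RNA for the 1189 listed genes, wild type on the horizontal axis and knockout on the vertical axis (grey points), with the 20 other iron genes in green and the 4 listed members as red squares with their standard errors. Fth1 lies at -1.80 and -1.77 and Ftl1 at -1.02 and -1.20, near the low end of all genes in both genotypes, while Iscu and Fech lie near 0.

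Uptake and sensing genes are listed in the IgG table alone, with 2 total RNA libraries and 1 library per immunoprecipitate, so their values carry counting intervals and no test. Tfrc, the receptor, had 66.8 CPM and 34.0 CPM in the total RNA libraries, 35.4 CPM with the IMP2 antibody and 50.5 CPM with IgG, so both immunoprecipitates lay within the spread of total RNA. Trf, the carrier protein, had 43.6 CPM and 66.1 CPM in total RNA, 59.7 CPM with IMP2 and 60.3 CPM with IgG, again within that spread. Aco1, cytosolic aconitase and iron regulatory protein, had 123.7 CPM and 104.6 CPM in total RNA, 166 CPM with IMP2 and 159 CPM with IgG. Aco1 therefore lay above both total RNA libraries in both immunoprecipitates, with log2 ratios of 0.54 and 0.48, opposite in sign to the ferritin chains.

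Nfs1, the cysteine desulphurase, was thinly covered, with 14, 51, 13 and 72 counts in libraries 15, 20, 25 and 26. At 10.2 CPM with IMP2 and 17.6 CPM with IgG it lay between the total RNA values of 9.84 CPM and 19.3 CPM. Iscu had 67.5 CPM and 63.1 CPM in total RNA, 103.8 CPM with IMP2 and 61.3 CPM with IgG. Fech had 136 CPM and 162 CPM in total RNA, 195 CPM with IMP2 and 132 CPM with IgG. For Iscu and Fech the IMP2 immunoprecipitate was the highest of the 4 libraries and the IgG immunoprecipitate the lowest, the latter by less than the counting intervals. Among the 8 members, Fth1 alone was at least 2-fold lower than the mean total RNA level, with the IMP2 antibody (9.84% of 8179 genes were) and with IgG (9.56%). No member was at least 2-fold higher with IMP2, where 4.1% of genes were, or with IgG, where 6.37% were.

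**Figure D4:**
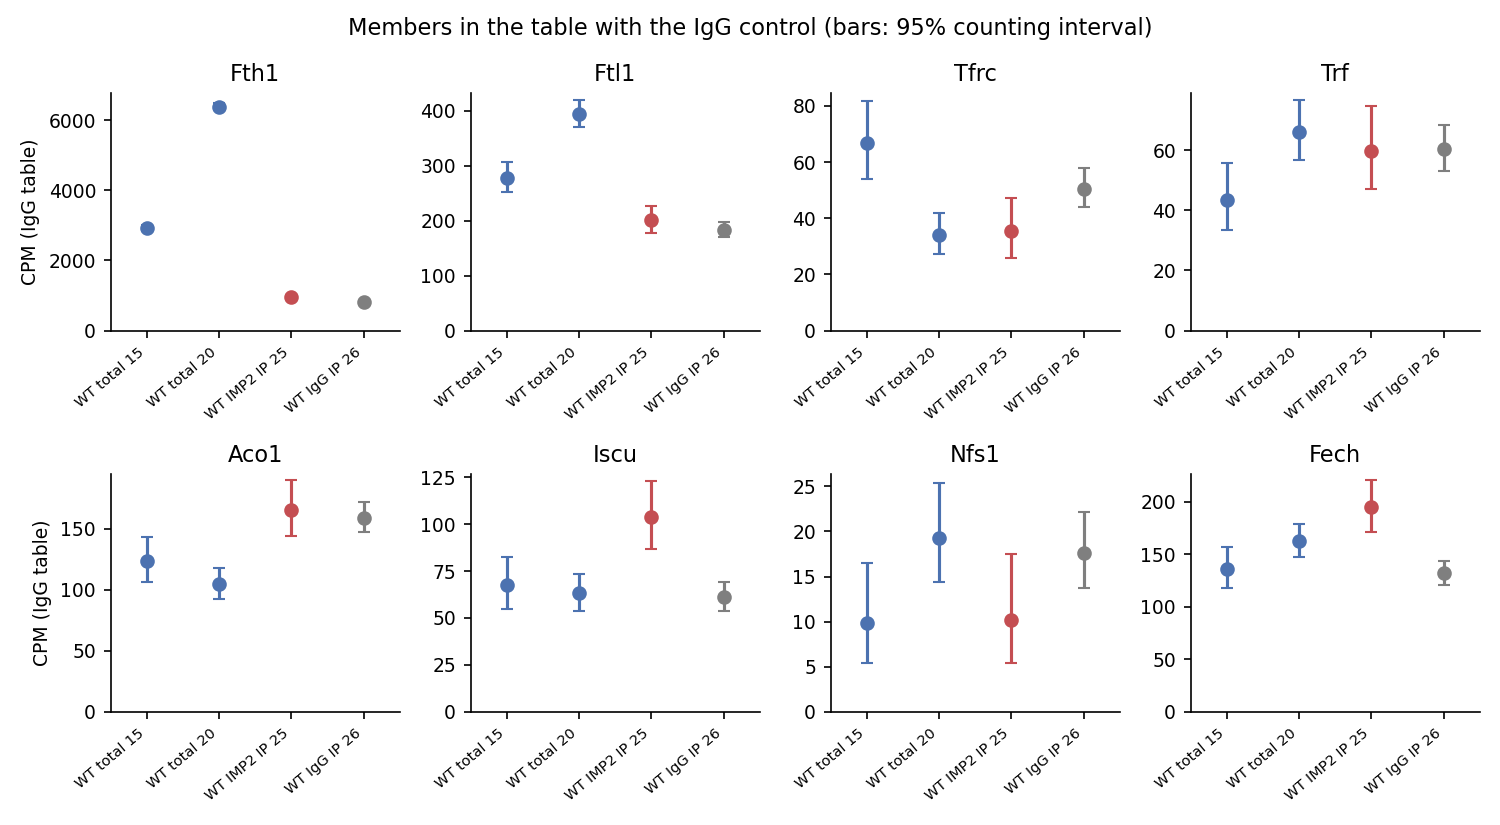
Level in CPM of the 8 listed members in the 4 libraries of the IgG table (blue, wild-type total RNA 15 and 20; red, IMP2 immunoprecipitate 25; grey, IgG immunoprecipitate 26), with 95% counting intervals, which for Fth1 are about as small as the points. Fth1 and Ftl1 lie below both total RNA libraries in both immunoprecipitates, Aco1 lies above both, and Iscu and Fech are highest with the IMP2 antibody.

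Whether the IMP2 antibody recovered more of a member than nonspecific IgG was asked first from libraries 25 and 26. Fth1 was 1.18-fold higher with IMP2 (95% counting interval 1.11 to 1.26) and Ftl1 1.09-fold (0.944 to 1.26). Iscu was 1.69-fold higher (1.36 to 2.1) and Fech 1.48-fold (1.27 to 1.72), while Tfrc stood at 0.70 of its IgG level (0.496 to 0.970). Trf, Aco1 and Nfs1 stood at 0.991, 1.04 and 0.582 of their IgG level, with intervals that included 1. None of the 8 members reached a 2-fold difference, against 5.01% of genes at least 2-fold higher and 9.85% at least 2-fold lower. These intervals cover counting error in single libraries and not the spread between animals or precipitations.

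A fit over all 12 libraries, with the table as a term, borrowed the spread from the replicated groups for the single IgG library. In it, edgeR's quasi-likelihood test called 0 of 4 members between IMP2 and IgG at an adjusted p of 0.05, where 1.6% of the 1189 genes were called, and 0 members had an unadjusted p under 0.05. The log2 difference was 0.23 ± 0.53 (95% interval -0.94 to 1.39, adjusted p = 0.888) for Fth1 and -0.21 ± 0.29 (adjusted p = 0.766) for Ftl1. It was 0.20 ± 0.25 (adjusted p = 0.735) for Iscu and 0.11 ± 0.23 (adjusted p = 0.869) for Fech. Without IMP2 immunoprecipitate 25 the values of Iscu and Fech turned to -0.17 and -0.12, so their higher level with IMP2 rests on that library. DESeq2 called 111 of the 1189 genes and limma-voom 19, none of them a member.

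The knockout gives a second background, the IMP2 antibody in tissue without IMP2. Here the wild-type immunoprecipitates had less Fth1 than the knockout ones: the log2 difference of wild type from knockout was -0.60 ± 0.34 (95% interval -1.37 to 0.17). In edgeR's test that difference had an adjusted p of 0.377. The same difference was -0.15 ± 0.21 for Ftl1 (adjusted p = 0.723), 0.05 ± 0.15 for Iscu (adjusted p = 0.888) and -0.05 ± 0.16 for Fech (adjusted p = 0.897). For Fech and Iscu the intervals ran from -0.42 to 0.32 and from -0.29 to 0.38. With edgeR 0 of 4 members passed, with 0 at an unadjusted p under 0.05, and 0% of all genes did, with 211 genes at an unadjusted p under 0.05. DESeq2 called 93 genes and limma-voom 0, none of them a member.

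Total RNA of the knockout had 1.48 times the Fth1 of wild type, a log2 difference of 0.56 ± 0.33 with overlapping groups (95% interval -0.20 to 1.33, adjusted p = 0.565 in edgeR). Leaving out library 16 raised it to 1.17, and over all left-out libraries it ran from 0.14 to 1.17. Ftl1 differed by 0.32 ± 0.20 (adjusted p = 0.572) and Fech by 0.04 ± 0.16 (adjusted p = 0.938). Iscu was lower in knockout, with a log2 difference of -0.28 ± 0.14 (95% interval -0.60 to 0.05, adjusted p = 0.514). So 0 of 4 members passed in edgeR, as did 0% of all genes, with 0 members and 132 genes at an unadjusted p under 0.05. DESeq2 called 35 genes and limma-voom 0, no member among them.

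Recovery that depends on IMP2 is the difference between genotypes in the ratio of immunoprecipitate to total RNA. For Fth1 it was -0.03 ± 0.47 on the log2 scale (95% interval -1.11 to 1.04), so the low ratio of Fth1 was of about the same size with and without IMP2, within wide limits. It was 0.17 ± 0.29 for Ftl1 (-0.49 to 0.83), -0.23 ± 0.21 for Iscu (-0.70 to 0.24) and -0.01 ± 0.23 for Fech (-0.53 to 0.51). Each had an adjusted p of 0.999 in edgeR's test, which called 0 of 4 members and 0% of all genes, with 0 members and 29 genes at an unadjusted p under 0.05. DESeq2 and limma-voom also called 0 genes. The interval of Fth1 still allows a difference of about 2-fold either way.

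Over the 8 libraries of the knockout table, the genes whose log2 CPM was most like that of Fth1 were Ftl1 (Pearson r = 0.987), Ndufa6 (0.981), Ndufb9 (0.980), Hras1 (0.980) and Ndrg3 (0.976). Predicted genes (named Gm and a number, Rik or LOC) and genes with counts identical to another gene were left out of this ranking. Ftl1 was the nearest of the genes ranked, and in the 4 libraries of the IgG table its r with Fth1 was 0.996. Fech was 342nd in that order (r = 0.483) and Iscu 520th (r = 0.0638). These correlations span total RNA and immunoprecipitate libraries, so the difference between both kinds, which chose Fth1, enters them, and no test was made.

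Among the other iron genes of the knockout table, none had a ratio as low as that of Ftl1 in either genotype. Of 92 such genes in lists of uptake, haem, iron-sulphur assembly and iron-sulphur enzymes, 20 are in the knockout table. In wild type 2 of these rose in the IMP2 immunoprecipitate and 0 fell, where edgeR called 9.92% of all genes higher and 12.4% lower. Ndufs7, an iron-sulphur subunit of respiratory complex I, stood at 1107 ± 99.99 CPM in total RNA and 2237 ± 299.7 in the immunoprecipitate (SD, n = 2 each), with a log2 ratio of 1.02 ± 0.13 and an adjusted p of 0.00171. Ndufv1, another subunit of complex I, had a ratio of 0.93 ± 0.13 (adjusted p = 0.00239). The median ratio of the 20 genes was 0.29, against 0.01 over all genes. Their lowest was that of Blvrb, a biliverdin reductase, at -0.32 ± 0.18. Listed transcripts have at least 101 counts in each wild-type library, immunoprecipitates included, so iron genes low in immunoprecipitates may be missing from the 20. In the IgG table Ftl1 was less than 2-fold lower than total RNA. There 10 of 74 other iron genes were at least 2-fold lower with IMP2 (9.84% of all genes) and 9 with IgG (9.56%).

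In knockout 6 of the 20 rose and 0 fell, where 10.6% of all genes were called higher and 15.7% lower. Ndufs7 rose by 0.81 ± 0.13 (edgeR adjusted p = 0.00341) and Ndufv1 by 0.58 ± 0.13 (adjusted p = 0.0133), so both rose where no IMP2 was present. The dehydrogenase Etfdh and the transporter Abcb8 each rose by 0.57 (adjusted p = 0.0135 and 0.0179). Their number fell from 6 to 1 (Ndufs7) without total RNA library 18 and to 1 without immunoprecipitate 24. The median of the 20 was 0.26, against -0.01 over all genes. Of 3 listed haem synthesis genes, Tmem14c, Alad and Slc25a39, 0 passed in either genotype, with 1 at an unadjusted p under 0.05 (Tmem14c, in both genotypes); its ratios were 0.35 ± 0.12 and 0.36 ± 0.12.

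Besides ferritin and Tfrc, the mRNAs of Alas2, Slc40a1, Slc11a2 and Epas1 are known to carry an iron-responsive element, and they were set beside the ferritin chains. None of these 4 was at least 2-fold lower in either immunoprecipitate of the IgG table. Their log2 ratios to total RNA ran from -0.32 (Slc11a2) to 0.11 (Slc40a1) with IMP2 and from -0.40 (Alas2) to 0.98 (Slc40a1) with IgG. Alas2, the erythroid enzyme that starts haem synthesis, had 43.6 and 26.8 CPM in total RNA, 28.3 CPM with IMP2 and 26.6 CPM with IgG.

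Of the 92 other iron genes, 74 in the wider IgG table reached the minimum of 5 CPM. With IMP2, 1 of the 74 was at least 2-fold higher than mean total RNA (4.1% of all genes were) and 10 at least 2-fold lower (9.84%). With IgG, 2 were higher (6.37%) and 9 lower (9.56%). The ratios had a median of -0.02 and -0.17, against -0.01 over all genes in each. Both comparisons use total RNA libraries 15 and 20. Low in both were Isca1 and Bola3, which help to pass iron-sulphur clusters on in mitochondria, the cytosolic assembly gene Fam96b, and Hfe2. Of these, Isca1 alone was at least 2-fold below each total RNA library in both immunoprecipitates. Isca1 had 141 and 114 CPM in total RNA, 35.4 CPM with IMP2 and 35.6 CPM with IgG. Bola3 had 167 and 287 CPM in total RNA, 111 CPM with IMP2 and 61.0 CPM with IgG. Hfe2 had 96.3 and 31.3 CPM in total RNA, 21.2 CPM with IMP2 and 31.2 CPM with IgG, so its low ratio rests on total RNA library 15. Higher with IMP2 was Fdxr, at 59.0 CPM against 24.6 and 30.6 in total RNA. Higher with IgG were Alas1, which starts haem synthesis outside red cells, and Ndor1. Alas1 had 43.7 CPM with IgG against 11.2 and 23.0, and Ndor1 16.1 CPM against 4.92 and 9.06. Each of Fdxr, Alas1 and Ndor1 was less than 2-fold above total RNA library 20. With IMP2, Ndor1 had 7.08 CPM, between its total RNA values. Between IMP2 and IgG, 4 of the 74 were at least 2-fold higher (Steap4, Cp, Fdx1 and Fam96a), as were 5.01% of all genes, and 3 at least 2-fold lower (Uros, Ndor1 and Dpyd), as were 9.85%. The counting intervals of Cp and Dpyd, with 10 and 3 counts in the IMP2 library, include 1. Fdx1, the mitochondrial ferredoxin, had 79.4 CPM with IMP2 and 34.2 CPM with IgG, and in the fit over 12 libraries its difference of 0.83 ± 0.30 had an adjusted p of 0.173.

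In the tested comparisons that did not choose the set, edgeR called 0 of the 20 other iron genes: knockout against wild-type total RNA (1 at an unadjusted p under 0.05), wild-type against knockout immunoprecipitate (2), IMP2-dependent recovery (0) and IMP2 against IgG, with its single IgG library (3). DESeq2 called 1 of the 20 in the comparison of immunoprecipitates, where it called 93 of all 1189 genes. In the other three it called 0 of the 20, beside 35, 0 and 111 of all genes in the order above, and limma-voom called 0 of the 20 in all 4. Abcb8, a mitochondrial transporter, had the largest difference of the 20 between wild-type and knockout immunoprecipitates, at -0.64 ± 0.15 (edgeR adjusted p = 0.129), in the same direction as Fth1.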

How the data were processed

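The authors deposited read counts per RefSeq transcript for the 12 brown fat libraries in 2 tables, of 1579 and 12840 transcripts. Per the submitters' processing notes, TopHat2 2.0.8 and Cufflinks 2.1.1 were used with build mm10; the counting tool, the treatment of multiply matching reads and the rule by which transcripts were listed are each not given in the sources used here. Per the labels' protocols, RNA was extracted with Trizol and libraries were built with a TruSeq DNA kit; strand was therefore taken as unmarked. Each gene is represented by the transcript whose counts summed highest. Of the transcripts lacking a symbol, 114 of 117 in the table with the knockout and 813 of 835 in the IgG table were named by their RefSeq identifier. The remaining 3 and 22 could not be named and were left out. They took 8.65% to 29.2% of a library's counts in the table with the knockout, and between 7.39% and 15.8% where the IgG control is.

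Counts were tested with edgeR 4.0.16 (limma 3.58.1, R 4.3.3): trimmed-mean scaling, quasi-likelihood tests, Benjamini-Hochberg adjustment over all 1189 genes, and a threshold of 0.05. The low-count filter removed no gene. All 4 groups of the knockout table shared 1 fit (4 residual degrees of freedom, biological coefficient of variation 15.3%); the fit over both tables had 6. The scripts were tested on simulated counts. Single libraries were compared by CPM with exact Poisson intervals, or conditional binomial ones for ratios; intervals cover counting error only. Nothing in the labels ties each library to its own animal, so the p-values reflect library-to-library spread that may be technical.

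The members and all lists were chosen with earlier results of these data known. Named were all members, Igf2bp2, Ucp1, the genes most like Fth1, and from each list those past the threshold or otherwise the highest and lowest; Fam96b, Isca1, Bola3, Hfe2, Steap4, Cp, Fdx1, Fam96a, Uros, Ndor1, Dpyd, Abcb8 in the last comparison and Tmem14c were named after their values were seen. Alternatives were other scalings, DESeq2 1.42.0, limma-voom, summed transcripts, fewer groups and left-out libraries. The 14 liver samples are not analysed here. Some genes of the lists are counted but not reported by name here.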

Additional observations from a re-analysis of the deposited data

How the results depend on the processing

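Of 789 values recomputed under alternatives, 740 kept their direction and side of the threshold, moved by less than the spread or, for counts of genes, stayed near the main count. Another 20 kept their direction but lost the threshold, 20 changed sign and 9 moved further. The 789 include a fit without the low-count filter, which repeats the main values because the filter removed no gene. The count of members called stayed at 0 in the 4 tested comparisons that did not choose the set under every alternative run; 1 of these, IMP2 against IgG, has a single IgG library. The low ratio of Fth1 to total RNA kept its direction under all of them: from -2.23 to -1.20 in wild type and from -2.0 to -1.44 in knockout with libraries left out, from -2.74 to -1.61 (IMP2) and -2.98 to -1.85 (IgG) in the IgG table. The log2 difference of Fth1 between the IMP2 and IgG libraries was 0.058 when scaled by library size alone. Upper-quartile scaling moved the median of all genes by 0.14 in wild type and 0.17 in knockout for immunoprecipitate against total RNA. Small differences changed sign, and the cause was not tested. For wild-type against knockout immunoprecipitate Iscu was at -0.0068 by library size alone and -0.0079 with upper-quartile scaling; the IMP2-dependent recovery of Fth1 was 0.0085 with limma-voom. With libraries left out, Fech ran from -0.16 to 0.21 in knockout against wild-type total RNA. In wild-type against knockout immunoprecipitate, Iscu ran from -0.15 to 0.19 and Fech from -0.15 to 0.021. In IMP2-dependent recovery, Fth1 ran from -0.46 to 0.57, Ftl1 from -0.10 to 0.52 and Fech from -0.23 to 0.16. In IMP2 against IgG over both tables, Fth1 ran from -0.091 to 0.61, Iscu from -0.17 to 0.29 and Fech from -0.12 to 0.16. Of the other iron genes, 4, 5 and 6 rose in wild type under library-size scaling, upper-quartile scaling and DESeq2, against 2; in knockout the number ran from 1 to 7 with libraries left out. A group left with 1 library was assumed to vary like the others. No paired fit was made, since the labels give no number that libraries of different groups share. Summed muscle markers were 2701, 10515, 596 and 2470 CPM in total RNA libraries 16 to 19 and 1540, 7248, 363 and 1384 CPM in immunoprecipitates 21 to 24; whether these share tissue was not tested.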
